A study of Mus musculus with 4 samples.

Results

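The mRNAs of 9 genes that code for scaffold proteins of the postsynapse were followed in RNA bound by the ribosomal protein RPS2 and in total RNA of cultured mouse cortical neurons. They are Shank1, Shank2, Shank3, Dlg2, Dlg4, Dlgap1, Dlgap3, Homer1 and Homer2, chosen by name out of 31053 genes in the count tables. All 9 passed the filter on low counts, which kept 12336 genes. RPS2 sits in the small ribosomal subunit, and enhanced crosslinking and immunoprecipitation (eCLIP) fixes RNA to protein in the living cell, trims it with RNase I and recovers what the antibody holds. The cultures came from embryos of C57BL/6J mice and carried the genotype WT, with a drug that stops dividing cells given early in culture. There were 2 IP libraries, labelled with the treatment rRNA depletion, and 2 total RNA libraries, labelled no treatment, taken from the samples ahead of the pulldown. If those labels hold, an effect of depletion and an effect of the IP cannot be told apart. The study used the quotient of IP over total RNA read counts per gene as an eCLIP measure of translational efficiency. That quotient is described here after scaling between libraries. Lower in the IP therefore means lower relative to the other genes tested, and it depends on the scaling.

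At an excitatory synapse the postsynaptic density is built in layers. The Dlg proteins (PSD-95 and PSD-93 among them) lie beneath the membrane and hold glutamate receptors and adhesion proteins through their PDZ domains. Dlgap proteins (also named SAPAP or GKAP) bind the guanylate kinase domain of the Dlg proteins and hand over to the Shank proteins, which in turn bind the Homer proteins, and Homer reaches metabotropic glutamate receptors and the actin skeleton. Several of these mRNAs, Shank1 and Dlgap3 among them, are known to travel into dendrites. Changes in SHANK and DLGAP genes are known in autism spectrum disorder and obsessive-compulsive behaviour.

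The messages differ in base composition, and the ratio of IP to total RNA varied with that property over all genes tested. For this reason 100 bases of coding sequence are shown for the 3 members with the most GC-rich counted exons, Dlgap3, Shank3 and Shank1. They are also shown for the 2 with the least, Dlg2 and Homer1, and for Dlgap1. The fitted ratio of Dlgap1 lay below that of Homer2, the member nearest to it in GC content, which has few counts. Each window lies in 1 coding exon of an annotated transcript (GENCODE M21, mm10, coding strand, 5′ to 3′), and capitals mark G and C. It was picked in the longest coding exon as the window whose GC content is nearest to that of all counted exons of the gene, so it stands for the counted exons and not for the coding sequence, which is richer in G and C for Dlgap1 and Homer1.
Dlgap3, 64.0% G or C, chr4:127194721-127194820, plus strand: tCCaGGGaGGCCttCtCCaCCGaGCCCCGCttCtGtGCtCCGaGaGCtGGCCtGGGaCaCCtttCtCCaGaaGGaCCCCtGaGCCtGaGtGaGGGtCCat
Shank3, 62.0% G or C, chr15:89547629-89547728, plus strand: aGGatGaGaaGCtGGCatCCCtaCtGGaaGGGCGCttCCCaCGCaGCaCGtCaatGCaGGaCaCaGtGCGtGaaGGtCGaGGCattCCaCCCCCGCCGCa
Shank1, 61.0% G or C, chr7:44351577-44351676, plus strand: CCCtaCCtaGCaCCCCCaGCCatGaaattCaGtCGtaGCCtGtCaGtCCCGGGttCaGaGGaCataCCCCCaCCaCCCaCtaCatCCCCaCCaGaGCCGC
Dlgap1, 47.0% G or C, chr17:70786795-70786894, plus strand: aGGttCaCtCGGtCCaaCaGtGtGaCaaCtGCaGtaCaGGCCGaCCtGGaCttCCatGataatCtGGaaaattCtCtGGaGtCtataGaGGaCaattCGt
Dlg2, 44.0% G or C, chr7:92375557-92375656, plus strand: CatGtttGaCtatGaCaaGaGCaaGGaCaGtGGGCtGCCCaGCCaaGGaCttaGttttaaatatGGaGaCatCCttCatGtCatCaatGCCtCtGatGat
Homer1, 39.0% G or C, chr13:93402102-93402201, plus strand: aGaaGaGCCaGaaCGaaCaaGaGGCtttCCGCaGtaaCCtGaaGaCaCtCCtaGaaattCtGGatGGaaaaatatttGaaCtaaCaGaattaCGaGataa

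The small subunit finds the start codon by scanning the leader, so the bases around the annotated start are given for 4 members that span the range of ratios. Each line has 12 bases before the start codon, the ATG in capitals and 12 bases after it, on the coding strand, from annotated transcripts.
Shank1: cgtggccccacgATGacccacagcccc
Dlgap3: tttgctgaggccATGaggggttaccat
Dlg4: aggccccccaacATGgactgtctctgt
Dlg2: ttatttactgcaATGttctttgcatgt
The third base before the ATG was a purine (A or G) in 9 of 9 members, A in 5 and G in 4. Over 20733 protein-coding genes in the tables with such a leader the share was 84.4%. A G directly after the ATG was found in 4 of 9 members and in 49.4% of those genes. The 12 bases before the ATG were 83.3% G or C in Shank1 and 25.0% in Dlg2.

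Shank1 (ENSMUSG00000038738, mm10 chromosome 7, 44310253 to 44360572, plus strand) and Dlgap3 (ENSMUSG00000042388, chromosome 4, 127169204 to 127237022, plus strand) had the highest scaffold levels per length of counted exon. Levels between genes are given as CPM (read counts scaled by the effective size of the library) per kilobase of counted exon. In total RNA Shank1 stood at 81.5 ± 26.6 CPM per kilobase (SD, n = 2 here and for all levels that follow) and Dlgap3 at 81.4 ± 19.9, a difference well inside their spread. Shank3 followed at 50.7 ± 9.69, then Dlg4, which encodes PSD-95, at 42.7 ± 5.37 and Shank2 at 42.6 ± 7.43. The ranges of these 3 overlapped between libraries, although Shank3 was the highest of them in each, with 57.6 against 47.9 for Shank2 and 46.5 for Dlg4 in replicate 1 and 43.8 against 37.4 and 39.0 in replicate 2. Dlgap1 at 16.6 ± 4.70 and Dlg2, which encodes PSD-93, at 13.2 ± 0.391 formed a lower step, with libraries of the pair that overlapped. Homer1 stood at 7.29 ± 0.290, and Homer2 came last at 1.07 ± 0.662. The level of Homer2 was nonetheless above that of 20.2% of all genes tested.

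In the IP libraries the order was nearly the same. Shank1 stood at 60.7 ± 14.8 CPM per kilobase and Dlgap3 at 54.7 ± 7.84, followed by Shank3 at 37.1 ± 5.09, Dlg4 at 36.9 ± 6.23 and Shank2 at 31.4 ± 6.73. Dlg2 at 15.9 ± 0.267 and Dlgap1 at 12.6 ± 3.07 exchanged places, with libraries of the 2 genes that did not overlap in the IP. Homer1 at 7.94 ± 0.913 and Homer2 at 0.981 ± 0.281 again closed the order. The level divides by all annotated exon bases of a gene, and for some members much of that lies outside any 1 transcript. The annotated transcript used below for composition has 3488 bases for Dlg4, against 13251 counted, and 1634 for Homer2, against 12621. For Shank1 it has 9826 bases against 10514, and for Dlgap3 4207 against 4521. The order of the members therefore depends on the length used. Coding bases made up 61.8% of the counted exons of Shank1, 54.3% of Shank2, 61.9% of Shank3 and 64.8% of Dlgap3, against 19.8% of Dlg2, 19.1% of Dlg4, 18.7% of Dlgap1, 11.7% of Homer1 and 9.68% of Homer2.

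**Figure D1:**
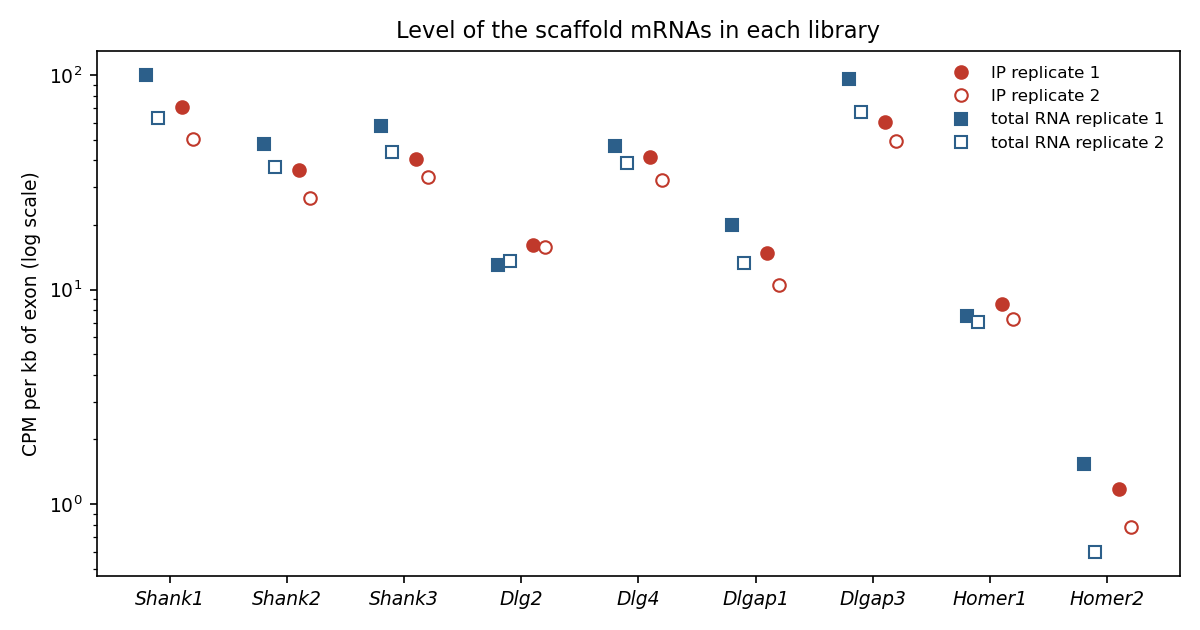
Level of the 9 scaffold mRNAs in each of the 4 libraries, in CPM per kilobase of counted exon on a log axis. Squares are total RNA and circles are RPS2 IP, filled for replicate 1 and open for replicate 2. Shank1 and Dlgap3 lie at the top, at 81.5 and 81.4 CPM per kilobase in total RNA, and Homer2 lies at the bottom at 1.07.

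The Shank family, which lies between the Dlgap and the Homer proteins, was lower in the RPS2 IP than in total RNA for each of its 3 genes, where 7.55% of all genes tested were called lower. These calls, and those of the Dlgap genes, were lost without the pairing of libraries and with an offset for GC content and length. Fold changes are log2 of IP over total RNA from edgeR's quasi-likelihood test with the replicate number as a block, and adjusted p-values are Benjamini-Hochberg over the 12336 genes. Shank1 had 10350 and 5887 counts in IP replicates 1 and 2 and 4740 and 4011 in total RNA, which is 748 and 529 CPM against 1055 and 659. Its IP library was lower than the total RNA of the same replicate in both pairs, although IP replicate 1 lay above total RNA replicate 2. The log2 ratio was -0.50 in replicate 1 (95% counting interval -0.55 to -0.45) and -0.32 in replicate 2 (-0.38 to -0.26), and the fitted value was -0.41 ± 0.10 (SE, adjusted p = 9.87e-04, edgeR). With library totals as the scaling it was -0.49 and not called (adjusted p = 0.0624). The counting intervals of the 2 replicates did not overlap, so the pairs differed by more than counting error.

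Shank2 (ENSMUSG00000037541, mm10 chromosome 7, 144001928 to 144424494, plus strand) had 5388 and 3195 IP counts against 2316 and 2449 in total RNA, or 389 and 287 CPM against 516 and 403. Neither IP library reached the lower of the total RNA libraries. Its log2 ratios were -0.41 and -0.49, with a fitted value of -0.45 ± 0.098 (adjusted p = 1.8e-04, edgeR). Shank3 (ENSMUSG00000022623, chromosome 15, 89499623 to 89560261, plus strand) had 5172 and 3425 counts in the IP against 2375 and 2451, or 374 and 308 CPM against 529 and 403. Here too the groups did not overlap. The ratios were -0.50 and -0.39 and the fitted value was -0.45 ± 0.098 (adjusted p = 1.89e-04, edgeR). The 3 fitted values of the family ran from -0.45 to -0.41, a range smaller than 1 SE of any of them.

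The Dlgap members, which join Dlg to Shank, were lower in the IP as well. Dlgap3 had 3767 and 2473 IP counts against 1938 and 1853 in total RNA, that is 272 and 222 CPM against 432 and 305. The groups did not overlap, and with ratios of -0.66 (-0.74 to -0.58) and -0.46 (-0.54 to -0.37) it had the lowest ratio of the 9 in replicate 1. The fitted value was -0.56 ± 0.098 (adjusted p = 1.07e-06, edgeR), a level 1.48-fold lower in the IP, and 4.78% of all genes tested had a lower fitted value. As for Shank1, the intervals of its 2 replicates did not overlap. Dlgap1 (ENSMUSG00000003279, mm10 chromosome 17, 69969073 to 70821413, plus strand) had 3480 and 1980 counts against 1518 and 1369, or 252 and 178 CPM against 338 and 225. Each pair was lower in the IP, but IP replicate 1 lay above total RNA replicate 2. Its ratios were -0.43 and -0.34 and its fitted value -0.38 ± 0.099 (adjusted p = 0.00188, edgeR).

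The Dlg members did not pass the test, and their 2 fitted values had opposite signs. Dlg2 (ENSMUSG00000052572, mm10 chromosome 7, 90476672 to 92449247, plus strand) had 3629 and 2852 IP counts against 948 and 1339 in total RNA, or 262 and 256 CPM against 211 and 220. The lower IP library exceeded the higher total RNA library, with ratios of 0.31 (0.21 to 0.42) and 0.22 (0.12 to 0.31). The fitted value of 0.27 ± 0.099 missed the threshold (adjusted p = 0.0513, edgeR). Of the counted bases of Dlg2, 0.461% are shared on the same strand with another annotated gene. Dlg4 (ENSMUSG00000020886, chromosome 11, 70016942 to 70047522, plus strand) had 7577 and 4798 counts against 2770 and 3140, which is 548 and 431 CPM against 617 and 516. The groups overlapped, although the IP was lower in each pair by more than counting error. The ratios were -0.17 (-0.23 to -0.11) and -0.26 (-0.33 to -0.20), with a fitted value of -0.22 ± 0.098 (adjusted p = 0.131, edgeR).

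The Homer members, which connect Shank to metabotropic glutamate receptors, did not pass the test. Homer1 (ENSMUSG00000007617, mm10 chromosome 13, 93299635 to 93405129, plus strand) had 1423 and 973 IP counts against 403 and 516 in total RNA, or 103 and 87.4 CPM against 89.7 and 84.8. Its libraries overlapped between groups, and the ratios of 0.20 and 0.043 gave a fitted value of 0.12 ± 0.11 (adjusted p = 0.532, edgeR). Its gene counts pool the long forms with the short form Homer1a, which neuronal activity is known to induce. Homer2 (ENSMUSG00000025813, chromosome 7, 81600481 to 81707527, minus strand) was the least sequenced member, with 206 and 110 counts against 87 and 46. That is 14.9 and 9.88 CPM in the IP against 19.4 and 7.56 CPM. Its ratio was -0.37 (-0.74 to -0.013) in replicate 1 and 0.38 (-0.12 to 0.87) in replicate 2, so the sign turned between the pairs. The fitted value of -0.051 ± 0.22 (adjusted p = 0.921, edgeR) leaves differences of the size seen for the Shank genes undetectable at this depth.

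Counted together, the test called 5 of the 9 members lower in the IP and 0 higher, where 7.55% of all genes tested were called lower and 6.63% higher. By CPM alone, the groups stood apart with the IP below for 3 members, against 14.9% of all genes tested, and with the IP above for 1 member, against 16.9%. The sign was the same in both pairs for 8 of 9 members and for 66.5% of all genes. The median fitted value of the members was -0.38, with -0.41 in replicate 1 and -0.32 in replicate 2, and the median of all genes tested was 0.011. All 5 called members belong to the Shank and Dlgap families. By counts, the Shank family supplied 20910 of the 40992 scaffold counts in IP replicate 1 and 12507 of 25693 in IP replicate 2, against 9431 of 17095 and 8911 of 17174 in total RNA. No difference between the families was tested.

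**Figure D2:**
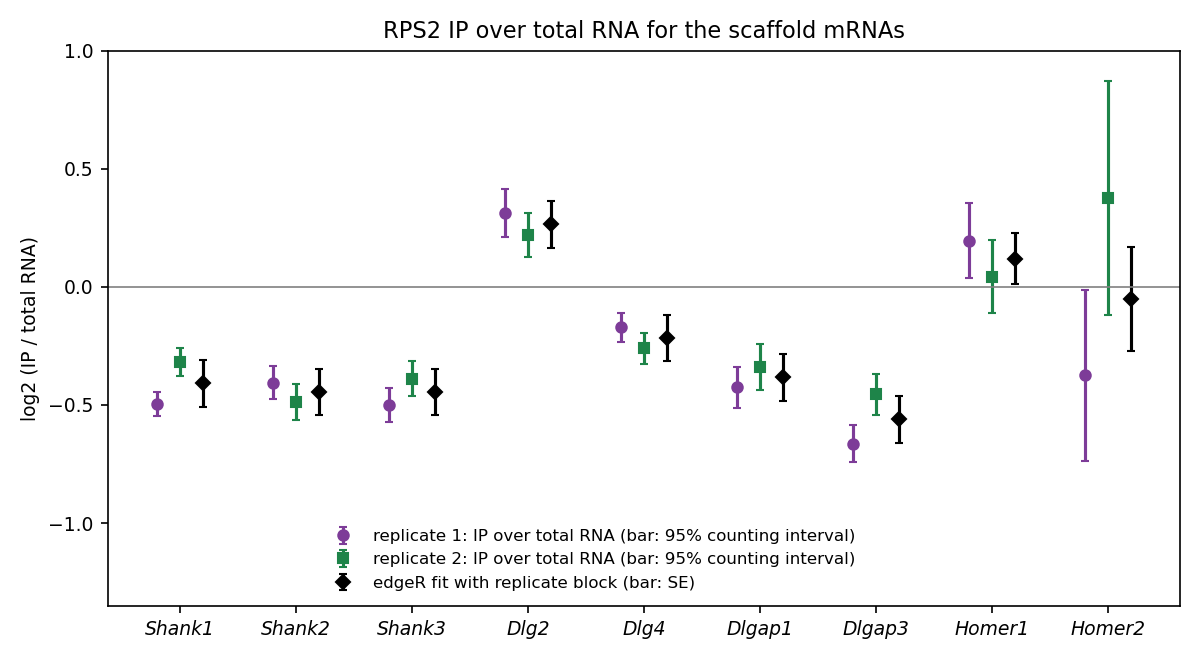
Log2 ratio of RPS2 IP over total RNA for each scaffold mRNA. Circles and squares are the pairs of replicates 1 and 2 with 95% counting intervals, and diamonds are the edgeR fit with its SE. The Shank and Dlgap genes lie between -0.56 and -0.38 in the fit, Dlg2 lies at 0.27, and the pairs of Homer2 fall on opposite sides of 0.

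The calls rest on the pairing by replicate number. When the pairing was dropped the fitted values were almost the same, with a median of -0.39, yet 0 of 9 members were called in either direction, as were 0 of the 12336 genes (0% higher and 0% lower). In that edgeR fit the unadjusted p-values of the members ran from 0.0751 to 0.841, so that 0 of 9 were under 0.05, against 349 of all genes. The biological coefficient of variation was 7.93% with the block and 29.7% without. With 2 pairs the blocked fit keeps 1 residual degree of freedom. Its prior degrees of freedom were infinite, so its p-values rest on a spread shared over genes and not on that of each gene.

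GC content and length were set beside each ratio. Dlgap3 had the highest GC content of the members over its counted exons at 63.9%, with 4521 bases of exon, and the lowest fitted value. Shank3 had 62.3% over 9189 bases, Shank1 61.3% over 10514 bases and Shank2 56.1% over 10768 bases. Dlg4 followed with 51.1% over 13251 bases. Dlgap1 had 45.6% over 16992 bases and Homer2 45.6% over 12621 bases. The 2 members with fitted values above 0 were the least GC-rich, Dlg2 with 41.7% over 16280 bases and Homer1 with 39.4% over 11976 bases. The order of the fitted values thus nearly mirrored the order of GC content, with a Spearman coefficient of -0.917 and a Pearson coefficient of -0.86 across the 9 genes. Across all 12328 genes with a GC value the Spearman coefficient was -0.299. These coefficients run across genes of the same 4 libraries, which are not independent replicates. Dlgap1 stood off that order, with a fitted value of -0.38 at a GC content that Homer2, with -0.051 ± 0.22, shares. Homer2 has few counts, and its ratio was -0.37 in replicate 1 and 0.38 in replicate 2, against -0.43 and -0.34 for Dlgap1. The members are long, with a median of 11976 bases of exon against 4672 over all genes tested. Against exonic length the Spearman coefficient of the fitted values was 0.717 over the members and -0.171 over all genes.

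The coding sequences and the 3′ UTRs of the members did not share 1 composition. In the annotated transcript used for each gene, the coding sequence of Dlgap1 (2046 bases) was 56.6% G or C, close to that of Dlg4 with 56.4% (2172 bases) and below that of Shank2 with 58.9% (5523 bases), while its 3′ UTR of 3178 bases was 40.4%. Shank1 was rich in G and C in both parts, with 63.6% over 6501 coding bases and 56.7% over 3238 bases of 3′ UTR. Shank3 had 63.8% over 5190 coding bases and 56.0% over 1941 bases of 3′ UTR. In Dlgap3 the 3′ UTR, at 66.2% over 657 bases, exceeded the coding sequence at 64.8% over 2931 bases. Dlg2 had 46.9% over 2556 coding bases and 43.1% over 4633 bases of 3′ UTR. Homer1 and Homer2 had 1062 coding bases each, at 46.5% and 54.1%, with 3′ UTRs of 34.8% and 48.7%. The gene counts do not say where on a transcript a read lay, so the ratio cannot be given for the coding sequence and the UTRs apart. None of the members holds an annotated small RNA in its counted exons.

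**Figure D3:**
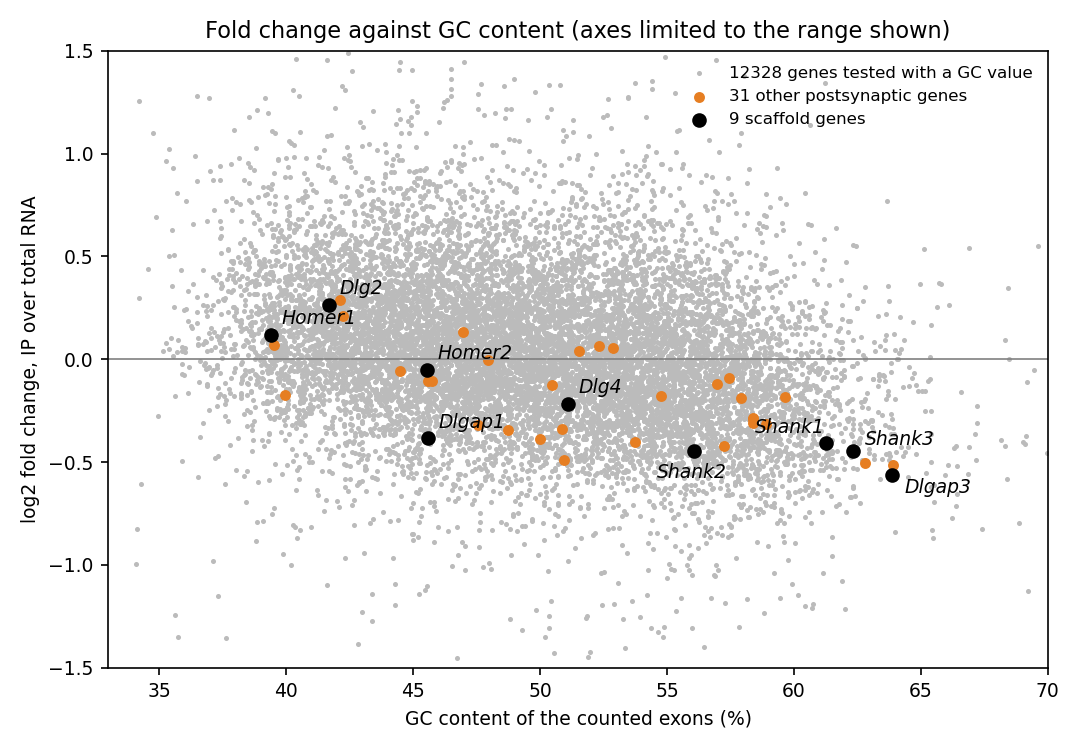
Fitted log2 fold change of IP over total RNA against GC content of the counted exons, for the genes tested with a GC value (grey), 31 other postsynaptic genes (orange) and the 9 scaffold genes (black). The scaffold genes run from Homer1 and Dlg2 at low GC content and values above 0 to Dlgap3 at 63.9% and -0.56.

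An offset per gene and library for the trend of counts with GC content and length, with the block kept, left 0 of 9 members called, where 3.03% of all genes were called lower and 3.83% higher. Under it Shank1 stood at 0.038, Shank3 at 1.02e-04 and Shank2 at -0.14. The lowest value was then that of Dlgap1, -0.29 (adjusted p = 0.0593, edgeR), and Dlgap3 was at -0.24 (adjusted p = 0.145). Dlg2 was at 0.26 (adjusted p = 0.102). These 3 were the members with an unadjusted p under 0.05 in that edgeR fit, in which 2398 of all genes had one. Dlg4 at -0.026, Homer1 at 0.04 and Homer2 at 0.0011 lay close to 0. The members' median was 1.02e-04 in this fit, and that of all genes -0.0092.

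The offsets that follow were chosen after seeing the data, and the first of them took the properties one at a time. With the GC offset alone 3 members were called lower, Dlgap1 at -0.49, Shank2 at -0.36 and Dlgap3 at -0.33, where 6.23% of all genes were, and 0 were called higher, against 4.85%. Dlg2 stood at 0.094 under it (adjusted p = 0.625, edgeR). With the length offset alone all 5 Shank and Dlgap members were called lower, where 7.81% of all genes were, and Dlg2 was called higher at 0.35 (adjusted p = 0.008, edgeR), where 5.30% of all genes were. With GC content and length taken from 1 principal transcript per gene instead of all annotated exons, Dlgap1 alone was called, at -0.42 (adjusted p = 0.00186, edgeR), where 2.77% of all genes were called lower and 3.53% higher. Homer1 moved from 0.04 to -0.19 between these offsets. Its GC content was 39.4% over all exons and 39.7% in that transcript, and its length 11976 and 2765 bases. Dlg4 was at -0.026 and -0.03, with 51.1% and 57.9% over 13251 and 3488 bases. Over 12 fits with the block, which differ in scaling, filter, tool or offset, Dlgap1 was called in 11, Shank2 and Dlgap3 in 10, Shank3 in 9, Shank1 in 8 and Dlg2 in 4. Dlg4, Homer1 and Homer2 were called in 0 of the 12, with no adjusted p from DESeq2 for Homer2.

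**Figure D4:**
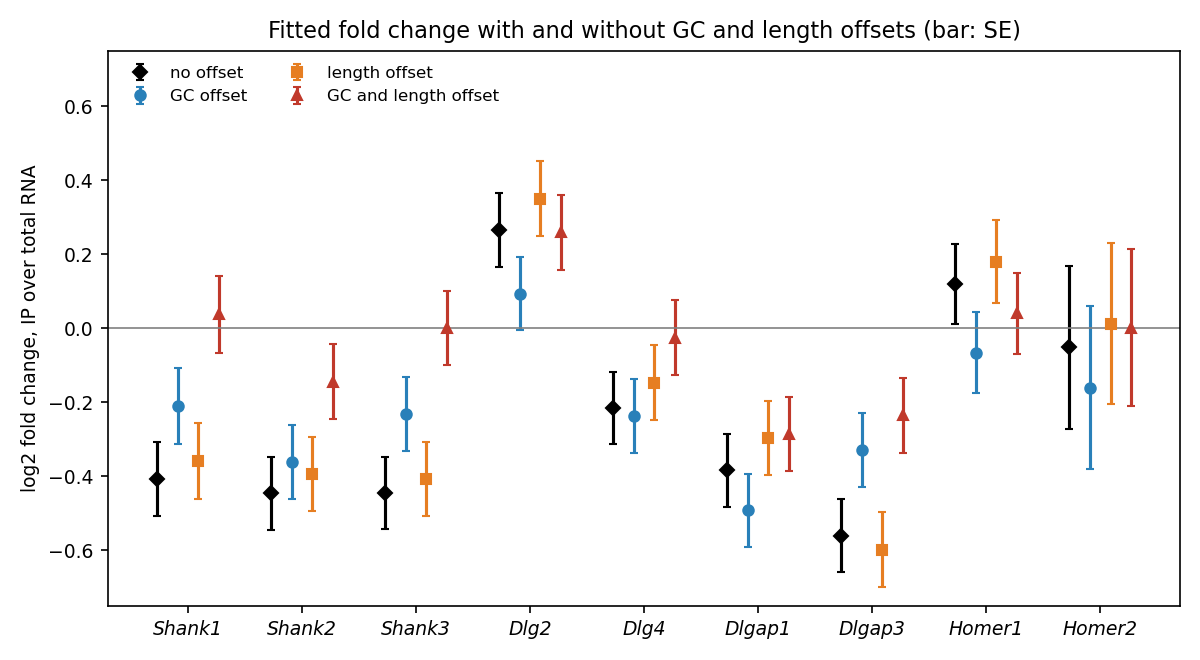
Fitted log2 fold change of IP over total RNA with its SE for each scaffold gene, with no offset (black), a GC offset (blue), a length offset (orange) and an offset for both (red). The Shank genes move from between -0.45 and -0.41 to between -0.14 and 0.038 when both properties enter, with Dlgap1 at -0.29 and Dlg2 at 0.26, and with the GC offset alone Dlgap1 lies at -0.49 and Dlg2 at 0.094.

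Other genes of the postsynaptic density, 31 in a list that includes 5 paralogs of the members, were lower in the IP in 12 cases and higher in 1, against the same 7.55% and 6.63% of all genes. Their median was -0.18, and the Spearman coefficient of their fitted values with GC content was -0.554. Among paralogs, Dlgap2 had 1759 and 1291 IP counts against 711 and 990 in total RNA, and its fitted value of -0.40 passed the test (adjusted p = 0.00168, edgeR). Dlgap4, with 3618 and 2836 counts against 1415 and 1906, passed at -0.28 (adjusted p = 0.0316). With the members, the 4 Dlgap genes and the 3 Shank genes examined were called lower. The paralogs Dlg1, which encodes SAP97, at 0.21 (adjusted p = 0.187) and Dlg3, which encodes SAP102, at 0.067 (adjusted p = 0.726) were not called, so that 0 of the 4 Dlg genes examined were. Homer3 at -0.19 (adjusted p = 0.77) was not called either, with 21 to 63 counts per library.

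Outside these families the lowest values among the 12 belonged to Begain, a protein that binds the guanylate kinase domain of PSD-95, at -0.52 ± 0.11, to Agap2, a GTPase-activating protein that interacts with Homer, at -0.50 ± 0.10, and to Tanc1, a scaffold with ankyrin repeats, at -0.49 ± 0.12. Begain and Agap2 are also GC-rich, with 63.9% and 62.8% in their counted exons, and Tanc1 is not, with 51.0%. With both properties in the offset 0 of the 31 were called, where 3.03% of all genes were called lower and 3.83% higher. Without the block 0 were called, as were 0 of all genes. In those edgeR fits 6 and 0 of them had an unadjusted p under 0.05, against 2398 and 349 of the 12336 genes.

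The 2 replicates differed in the level of the scaffold mRNAs and in that of astrocyte and microglia markers. Shank1 was lower in replicate 2 than in replicate 1 by a log2 difference of -0.50 among IP libraries and -0.68 in total RNA, Dlgap1 by -0.50 and -0.59, and Dlgap3 by -0.29 and -0.50. For Shank3 the differences were -0.28 and -0.39, for Shank2 -0.44 and -0.36, for Dlg4 -0.35 and -0.26. Homer1 differed by -0.23 and -0.081, and Homer2 by -0.58 and -1.33. Dlg2 differed least, by -0.034 and 0.06. The median over members was -0.35 for the IP and -0.39 for total RNA, while over all genes tested it was -0.0021 and -0.014. There is 1 library of each kind per replicate, so these differences carry no test. Summed CPM of 5 astrocyte markers was 3158 and 1317 in the IP libraries, with 2593 and 1166 for total RNA, and that of 5 microglia markers 60.1 and 6.81 against 59.6 and 4.92, higher in replicate 1 in both kinds of library. Their part in the scaffold values was not tested. In such bulk libraries fewer cells of a type and less RNA per cell cannot be told apart.

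The label of cortical neurons was checked against its markers. All 6 neuronal markers were detected in every library, with a summed level of 3017 to 3479 CPM. So were the 5 markers of excitatory neurons, at 2487 to 2982 CPM, with Camk2a at 1568 to 2073 and Neurod6 at 1.79 to 5.05. The 4 of inhibitory neurons were also detected, at 1062 to 1202 CPM, with Dlx1 at 8.37 to 28.2. All 5 astrocyte markers were detected in every library as well. In replicate 1 they summed to 3158 CPM against 3440 for neurons in the IP, and to 2593 against 3017 in total RNA. In replicate 2 the sums were 1317 against 3183 and 1166 against 3479. Oligodendrocyte markers summed to 35.1 to 45.7 CPM, nearly all of it Mbp, with 3 of 5 at 0 in some library. Of the microglia markers 3 of 5 were at 0 in some library. Endothelial markers summed to at most 1.64 CPM, with Cldn5 at 0 in all 4 libraries. Total counts were 16460545 and 9941486 in the IP libraries and 5281196 and 4899718 in total RNA. Of them the gene Gm42418 took 42.6% and 27.9% in IP replicates 1 and 2, against 39.8% and 15.3% in total RNA. The share of calls that were higher was 46.8%, and it moved to 24.4% with library totals as the scaling, to 64.6% with totals that leave out Gm42418 and to 29.3% with DESeq2.

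Genes outside both lists whose levels were most like those of the members were found by the distance between profiles of log2 CPM over the 4 libraries, each centred on its own mean. For the members' mean profile they were Adprhl2, Cers2 and Wscd2, with distances of 0.0197, 0.0332 and 0.034. For Shank1 they were Man2a2, Adgrl1 and Mgat5b, and for Shank2 4930539E08Rik, Cul9 and Trmt1. Dgkz and Plpp7 were among the nearest to Shank3, with Dgkz, a diacylglycerol kinase, at a fitted value of -0.46. The genes nearest to Dlgap1 were Xylt1, Lrrc4b and Dchs1, and those nearest to Dlgap3 were Sowaha, Abl1 and Nyap1. Among them Lrrc4b encodes a synaptic adhesion protein that binds PSD-95, and its fitted value was -0.36. Nlk, Ppp1r7 and Mrpl55 were nearest to Dlg2, and Wdfy3, Phactr2 and Cenpv to Dlg4. Gabrd, Samm50 and Tulp3 were nearest to Homer1. Homer2, the member with the fewest counts, had the most distant neighbours, Cep95, Ccdc167 and Cntn5, from 0.0448 to 0.0853. With 4 libraries such likeness is a description.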

How the data were processed

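The authors deposited raw counts of reads per gene, not normalised, with the exonic length of each gene. Per the file headers and the study's methods, reads were trimmed with cutadapt, aligned to mm10 with STAR and counted with featureCounts 1.5.3 in stranded mode, without reads at several loci or in several genes. PCR duplicates were not said to be removed, and intervals cover counting error only. Of 31053 identifiers, 31011 carried a symbol in GENCODE M21, whose transcripts also gave exonic GC content. The main test was that of edgeR 4.0.16 in R 4.3.3 (filterByExpr, TMM, quasi-likelihood test, two-sided, Benjamini-Hochberg, threshold 0.05). Ratios within a pair are differences of log2 CPM with a prior count of 2. Offsets came from smooth trends of log2 CPM per library fitted with mgcv 1.9.3. DESeq2 1.42.0 and limma-voom (limma 3.58.1) served as alternatives. The fits were tested on simulated data.

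The replicate number was taken as a block because the ratio is defined within it and the methods take total RNA from each sample ahead of the IP. Libraries of one number deviated together from their group means (Pearson 0.733). Nothing says that the replicates came from separate animals, so p-values measure only the spread between these libraries. In the main fit that spread is the one shared over genes. The members and lists were chosen with earlier results of these data known. The named genes are all members, 5 paralogs, the 3 called postsynaptic genes with the largest change in each direction and the 3 genes nearest to each profile. The other genes named, Gm42418 among them, were chosen after their values were seen. A few genes that this rule names are not reported here.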

Additional observations from a re-analysis of the deposited data

How the results depend on the processing

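Without the replicate block 0 genes were called higher or lower, with 0 scaffold members and 0 other postsynaptic genes among them. With single libraries left out in that fit, all genes called lower ranged from 1 to 20, all called higher stayed at 0 and scaffold and other postsynaptic genes called at 0. The members' median was -0.60 without IP replicate 1, -0.17 without IP replicate 2, -0.068 without total RNA replicate 1 and -0.64 without total RNA replicate 2, and was -0.41 without replicate 2 and -0.32 without replicate 1. Homer2 ranged from -0.65 to 0.71 without a library, with 0.15 and 0.71 without IP replicate 2 and total RNA replicate 1, and with -0.37 and 0.38 for a single pair. The lone library of a group was assumed to vary like the other group. Library totals as the scaling gave 283 genes higher and 878 lower. With that scaling 4 scaffold members were lower, without Shank1, 7 other postsynaptic genes were lower and 0 higher, and the members' median was -0.47. Totals without Gm42418 gave 1241 genes higher and 680 lower, 6 other postsynaptic genes lower, a median of -0.32 and Homer2 at 0.016. DESeq2 gave 158 higher and 382 lower, with 7 other postsynaptic genes lower and 0 higher. With no low-count filter 7 of the other postsynaptic genes were lower and 0 higher, where 699 and 769 of all genes were. With median-ratio size factors 0 of them were higher, against 721 of all genes. Dlg2 was the 1 member called higher with at least 10 counts per library, limma-voom, totals without Gm42418 or the length offset. In these fits 878, 685, 1241 and 654 of all genes were called higher, in that order. The GC and length offset gave 473 genes higher and 374 lower, 0 members, 0 other postsynaptic genes and a median of 1.02e-04, with Shank1 at 0.038, Shank3 at 1.02e-04 and Homer2 at 0.0011, all with the sign turned. The principal transcript offset gave 436 and 342 genes, 1 member lower, 0 other postsynaptic genes and a median of -0.16, with Shank1 at 0.043 and Homer1 at -0.19 turned in sign. With the GC offset 3 members and 7 other postsynaptic genes were lower and 0 higher, where 769 and 598 of all genes were. The members' median was then -0.23 and Homer1 was at -0.066. With the length offset the median was -0.30 and Homer2 was at 0.012. The cause of these shifts was not tested beyond what each setting changes. Depth limits Homer2 and Homer3.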
